A study of Homo sapiens with 4 samples.

Results

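THP1 is an established human monoblastic line of acute myeloid leukaemia that carries the MLL-AF9 fusion gene. The comparison described here is between the 2 independent transfection experiments of the series, experiment 1 (2 arrays) and experiment 2 (2 arrays), which together are all 4 arrays. Arrays were assigned by the experiment number in their titles. Each experiment held 1 array of cells given the miR-511 mimic and 1 array of cells given negative control #1 mimic, each transfected once at 30 nM and harvested on day 2. All cultures shared the line, the low-serum medium with added serum albumin, the extraction kit and the labelling, so the groups differed in the experiment, and the mimic was a covariate in the test. The mimic arrays of 1 experiment are the only replicates there are, and they differ in the mimic. A p-value here rests on the spread left between 2 pairs of arrays, with 1 residual degree of freedom. It also rests on a prior spread pooled over all probes, with 1.96 degrees of freedom. Where the pairs nearly coincide, the standard error, near 0.08, comes from that prior.

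Cultures of 1 cell line take up sterol, lipid, metal ions and cytokines from what surrounds them, and several transcript programs follow these supplies. When sterol in the endoplasmic reticulum is low, SREBP transcription factors switch on the enzymes of cholesterol and fatty acid synthesis, while oxysterols activate LXR, which drives cholesterol efflux. MHC class II genes of monocytic cells depend on the coactivator CIITA and are raised by interferon gamma, metallothioneins respond to zinc and other metals through the factor MTF1, and interferon-stimulated genes to type I interferon through STAT2 and IRF9. This is background, and none of these factors was measured here.

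The median processed signal was 92.3 on the experiment 1 miR-511 mimic array and 100.4 to 111.2 on the others. Between 22130 and 23647 of 34127 probes were well above background per array, lowest on the experiment 1 miR-511 mimic array, where the spread over the 10 spots of probes printed 10 times was also widest (median SD 0.105 on the log2 scale, against 0.0506 to 0.078 on the other arrays). Of 13 monoblast markers on the array, 12 were well above background on all 4 arrays, among them CD33, SPI1, CEBPA, CSF1R, MPO and HOXA9. The same held for 3 of 9 T lymphocyte, 4 of 7 B lymphocyte, 4 of 9 erythroid, 3 of 8 epithelial, 3 of 7 endothelial and 0 of 8 fibroblast markers. The summed linear level of these monoblast markers was 152600 to 155400 in experiment 1 and 131700 to 135100 in experiment 2. For markers of other cell types, summed levels on the same scale were 155.2 to 178.3 for 9 T lymphocyte, 1729 to 1857 for 7 B lymphocyte, 222.8 to 271.4 for 9 erythroid, 1215 to 1444 for 8 epithelial, 93.31 to 112.3 for 7 endothelial and 19.98 to 187.9 for 8 fibroblast markers, and the ranges of the experiments did not overlap for the monoblast, T lymphocyte and epithelial lists. Their part in any result below was not tested. All arrays lay on 1 slide, with experiment 1 at positions 1 and 2 and experiment 2 at positions 3 and 4, so position and experiment cannot be told apart, and 10 spike-in transcripts differed between experiments by -0.0886 to 0.161 on the log2 scale before normalization.

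Of 22596 probes tested, 2690 (11.9%) had an unadjusted limma p below 0.05 and are referred to as called. This is the first of the conditions the study set for a changed probe, and its further test over identical replicate probes was not applied here. Experiment 2 was higher at 1105 of them, 4.89% of all tested probes, and lower at 1585, 7.01%. The called probes lay in 2535 genes. None passed the Benjamini-Hochberg adjustment of limma: the smallest adjusted p was 0.359 and the largest among called probes 0.42, with 2.96 total degrees of freedom. A threshold of 0.05 passes 5% of probes where nothing differs, and 2 arrays against 2 cannot give an exact permutation p below 0.333. The median size of a called difference was 0.426 (log2), and 179 exceeded 1, of which 82 were at probes above background on all 4 arrays. The experiments did not overlap at 2556 called probes, and at 49.4% of all tested probes. A call favours such a gap, so at a called probe the gap adds no support. Of the called probes, 2340 were above background on all 4 arrays. All the others passed the filter through 1 experiment alone, so the filter favoured their direction. Among these, 108 were above background on neither array of the other experiment, and the filter set their direction. All differences below are experiment 2 minus experiment 1 on the log2 scale, with the standard error of the fit, and levels are log2 normalized intensities given in the order control mimic, miR-511 mimic.

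By median size the experiments stood further apart than the mimics, a difference that was not tested. The median size of the difference over tested probes was 0.122 between experiments and 0.0788 between mimics in the same fit, in which 845 probes were called for the mimic. The control mimic arrays and the miR-511 mimic arrays give the experiment difference from separate arrays. Over all tested probes the sign was the same in both pairs at 62.9% of probes, with a Pearson correlation of 0.328 and a Spearman correlation of 0.335 across probes, which share arrays and are not independent replicates. Of 1562 probes well above background on all arrays that differed by more than 0.5 between the control mimic arrays, 1082 (69.3%) had the same sign between the miR-511 mimic arrays, and the share was 67.7% of 232 probes past 1. The miR-511 pair, which holds the array with the widest spot spread, had 437 probes above 1 and 156 below -1, while the control pair had 192 in each direction.

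**Figure D1:**
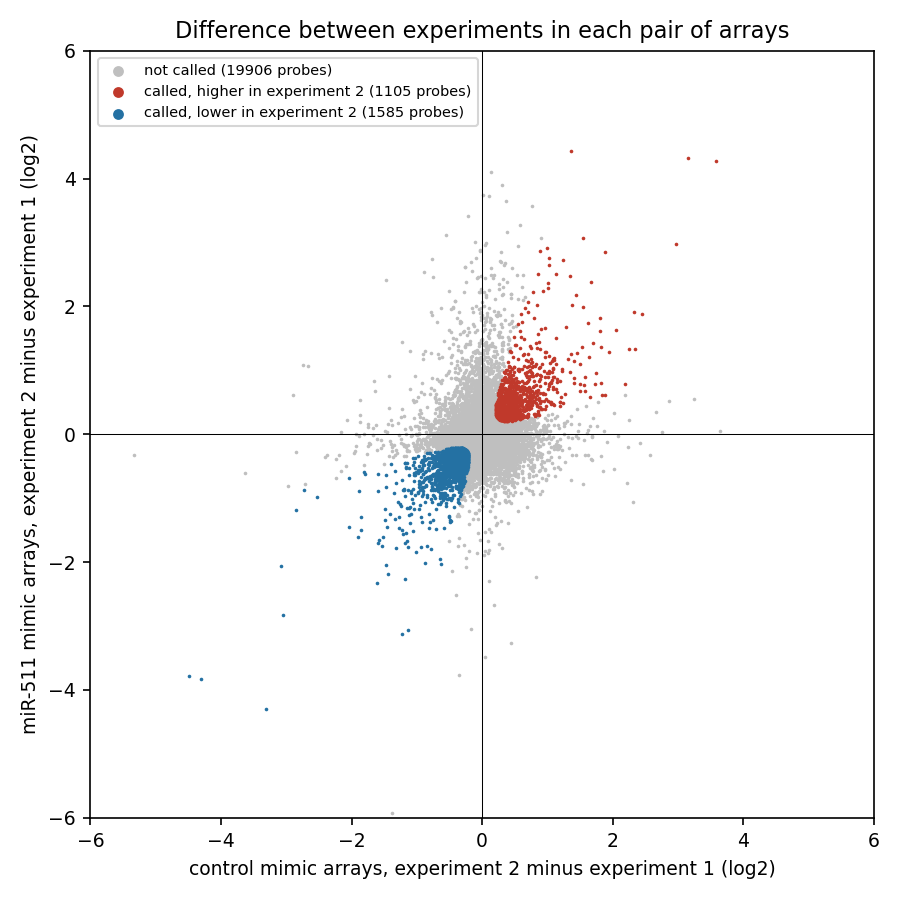
Each point is 1 tested probe, placed by the log2 difference between experiments in the control mimic arrays (horizontal) and in the miR-511 mimic arrays (vertical), with 1105 called probes higher and 1585 lower in experiment 2 in colour. Called probes lie in the 2 quadrants where both pairs have the same sign, because a probe whose pairs disagree in sign cannot be called in this fit. A column of uncalled points rises near 0 on the horizontal axis, where only the miR-511 mimic pair differs.

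Most cholesterol synthesis genes on the list were called lower in experiment 2. All 23 tested members of the list of sterol synthesis and uptake genes had differences below 0, 15 were called lower and 0 higher, where 7.23% of the 18001 genes were called lower and 4.91% higher. The median over the list was -0.329, against -0.0126 over all genes, and it was -0.322 in the control mimic pair and -0.294 in the miR-511 mimic pair. In bulk RNA, fewer cells of a type and less RNA per cell cannot be told apart. DHCR7, which makes cholesterol in the last step of one branch of the pathway (probe at hg19 chr11:71145514-71145573), had levels of 14.10 and 13.96 in experiment 1 and 13.23 and 13.28 in experiment 2. Its difference was -0.78 ± 0.09 (limma adjusted p = 0.359), a 1.71-fold lower level, and the experiments did not overlap.

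Other called members of the list had the same sign. INSIG1, which holds the SREBP escort protein in the endoplasmic reticulum and is itself an SREBP target (chr7:155101843-155101902), stood at 13.88 and 13.85 in experiment 1 and 13.15 and 13.22 in experiment 2, a difference of -0.68 ± 0.08 (1.60-fold lower). LSS, the cyclase that makes lanosterol (chr21:47609299-47609358), was measured at 13.09 and 13.07 in experiment 1 and 12.46 and 12.44 in experiment 2 and differed by -0.63 ± 0.08. For both genes the arrays of 1 experiment lay within 0.1 of each other while the experiments lay more than 0.6 apart. TM7SF2, a sterol reductase, differed by -0.51 ± 0.08, from 9.86 and 9.86 in experiment 1 to 9.40 and 9.31 in experiment 2. IDI1, the isopentenyl diphosphate isomerase, was at 13.07 and 13.12 in experiment 1 and 12.51 and 12.76 in experiment 2 (-0.46 ± 0.10).

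STARD4, a sterol transfer protein, stood at 9.25 and 9.22 in experiment 1 and 8.78 and 8.96 in experiment 2, which is 1.28-fold lower in experiment 2 (-0.36 ± 0.10). HMGCS1, the synthase that makes HMG-CoA (chr5:43290117-43290176), was at 12.88 and 12.97 in experiment 1 and 12.64 and 12.51 in experiment 2, a difference of -0.35 ± 0.10. Both were lower in experiment 2 in each pair of arrays, which any call in this fit requires, and the HMGCS1 call was lost with 75th percentile scaling. Called members also included MSMO1, SQLE, FDPS, CYP51A1, SC5D and FDFT1, with differences from -0.33 to -0.26. SREBF2, which encodes the SREBP of sterol synthesis, was not called and stood at 12.05 and 11.89 in experiment 1 and 11.44 and 11.75 in experiment 2. MVD, NSDHL, MVK, EBP, PMVK and HSD17B7 were not called, with differences from -0.34 to -0.05. With 1 array left out, 7 (without the experiment 1 miR-511 mimic array), 8 (without the experiment 2 control mimic array), 11 or 12 members were called lower, with no filter on dim probes 9, and the median stayed between -0.353 and -0.265.

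Fatty acid synthesis followed the same direction, with 8 of 12 tested genes called lower, 1 called higher and a median of -0.380. SREBF1, which encodes the SREBP of fatty acid synthesis and is itself an LXR target (chr17:17715419-17715478), had levels of 12.92 and 13.19 in experiment 1 and 11.81 and 11.79 in experiment 2. It was 2.38-fold lower in experiment 2 (-1.25 ± 0.11, limma adjusted p = 0.359), the largest difference of the list. A second SREBF1 probe, at chr17:17715304-17715363, was not called and stood at 7.99 and 8.26 in experiment 1 and 8.06 and 8.06 in experiment 2. The desaturases of polyunsaturated fatty acids came next. FADS2 (chr11:61634754-61634813) was at 14.00 and 14.08 in experiment 1 and 13.26 and 13.23 in experiment 2, a difference of -0.79 ± 0.08, and FADS1 (chr11:61567126-61567185) at 13.18 and 13.24 in experiment 1 and 12.51 and 12.64 in experiment 2, a difference of -0.63 ± 0.08. These neighbouring genes differed by a similar amount.

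ACACA, the acetyl-CoA carboxylase that commits carbon to fatty acids, was at 12.75 and 13.00 in experiment 1 and 12.26 and 12.39 in experiment 2 (-0.55 ± 0.09). SCD, the stearoyl-CoA desaturase, was at 11.64 and 11.70 in experiment 1 and 11.18 and 11.31 in experiment 2 (-0.42 ± 0.08), and FASN, the fatty acid synthase, at 14.48 and 14.67 in experiment 1 and 14.14 and 14.20 in experiment 2 (-0.41 ± 0.08). ACLY and ACSL3 were also called lower, at -0.35 ± 0.09 and -0.34 ± 0.08. ME1, the malic enzyme that supplies NADPH and is also a target of NRF2, was the 1 member called higher, at 9.66 and 9.73 in experiment 1 and 10.11 and 10.12 in experiment 2 (0.42 ± 0.08). OLMALINC, a long noncoding RNA gene next to SCD (named NCRNA00263 in the files, chr10:102133690-102133749), was also called lower in experiment 2, with levels of 8.60 and 8.61 in experiment 1 and 7.14 and 7.16 in experiment 2 and a 2.74-fold lower level (-1.45 ± 0.08, limma adjusted p = 0.359). Without the experiment 2 control mimic array, 4 of the fatty acid genes were called lower, without the experiment 2 miR-511 mimic array 5, and with an unmoderated test (equal variances in both experiments and no mimic term) 5.

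Genes of lipid storage and efflux had calls in both directions. ABCA1, the transporter that loads cholesterol onto apolipoprotein A-I (chr9:107543704-107543763), had levels of 5.78 and 6.50 in experiment 1 and 4.34 and 4.31 in experiment 2, 3.53-fold lower in experiment 2 (-1.82 ± 0.23, limma adjusted p = 0.359). With normexp background correction the ABCA1 difference was -0.694, in the same direction and still called. MYLIP, a ubiquitin ligase, was at 10.92 and 11.21 in experiment 1 and 10.38 and 10.47 in experiment 2 (-0.64 ± 0.10), and ABCG1, another efflux transporter, at 4.38 and 4.45 in experiment 1 and 4.11 and 4.22 in experiment 2 (-0.25 ± 0.08). Both are LXR targets and were lower on both arrays of experiment 2. The ABCG1 call was lost in 7 of the 9 alternatives with all arrays, and with normexp its difference was -0.0859.

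LPL, the lipoprotein lipase, was called higher, from 8.10 and 8.05 in experiment 1 to 8.72 and 8.88 in experiment 2 (0.72 ± 0.10). PDK4 and FABP5 were also called higher, at 0.51 ± 0.08 and 0.32 ± 0.08, and CD36, the scavenger receptor, was called lower at -0.34 ± 0.08. In all, 3 of 14 tested genes of the list of lipid storage and efflux were called higher and 4 lower, with a median of -0.0905 that differed in sign between the pairs (-0.122 and 0.0313). APOE was not called and stood at 12.31 and 12.21 in experiment 1 and 12.30 and 12.18 in experiment 2. A list of LXR targets was added after these values had been seen: 9 of its 19 tested genes were called lower and 2 higher, LPL among them, with a median of -0.295, and it shares SREBF1, SCD, FASN, ACACA, ABCA1, ABCG1, MYLIP, LPL, CD36, APOE and NR1H3 with the lists above. Without the experiment 2 control mimic array, and with an unmoderated test, 5 of them were called lower, and with normexp the median was -0.178.

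**Figure D2:**
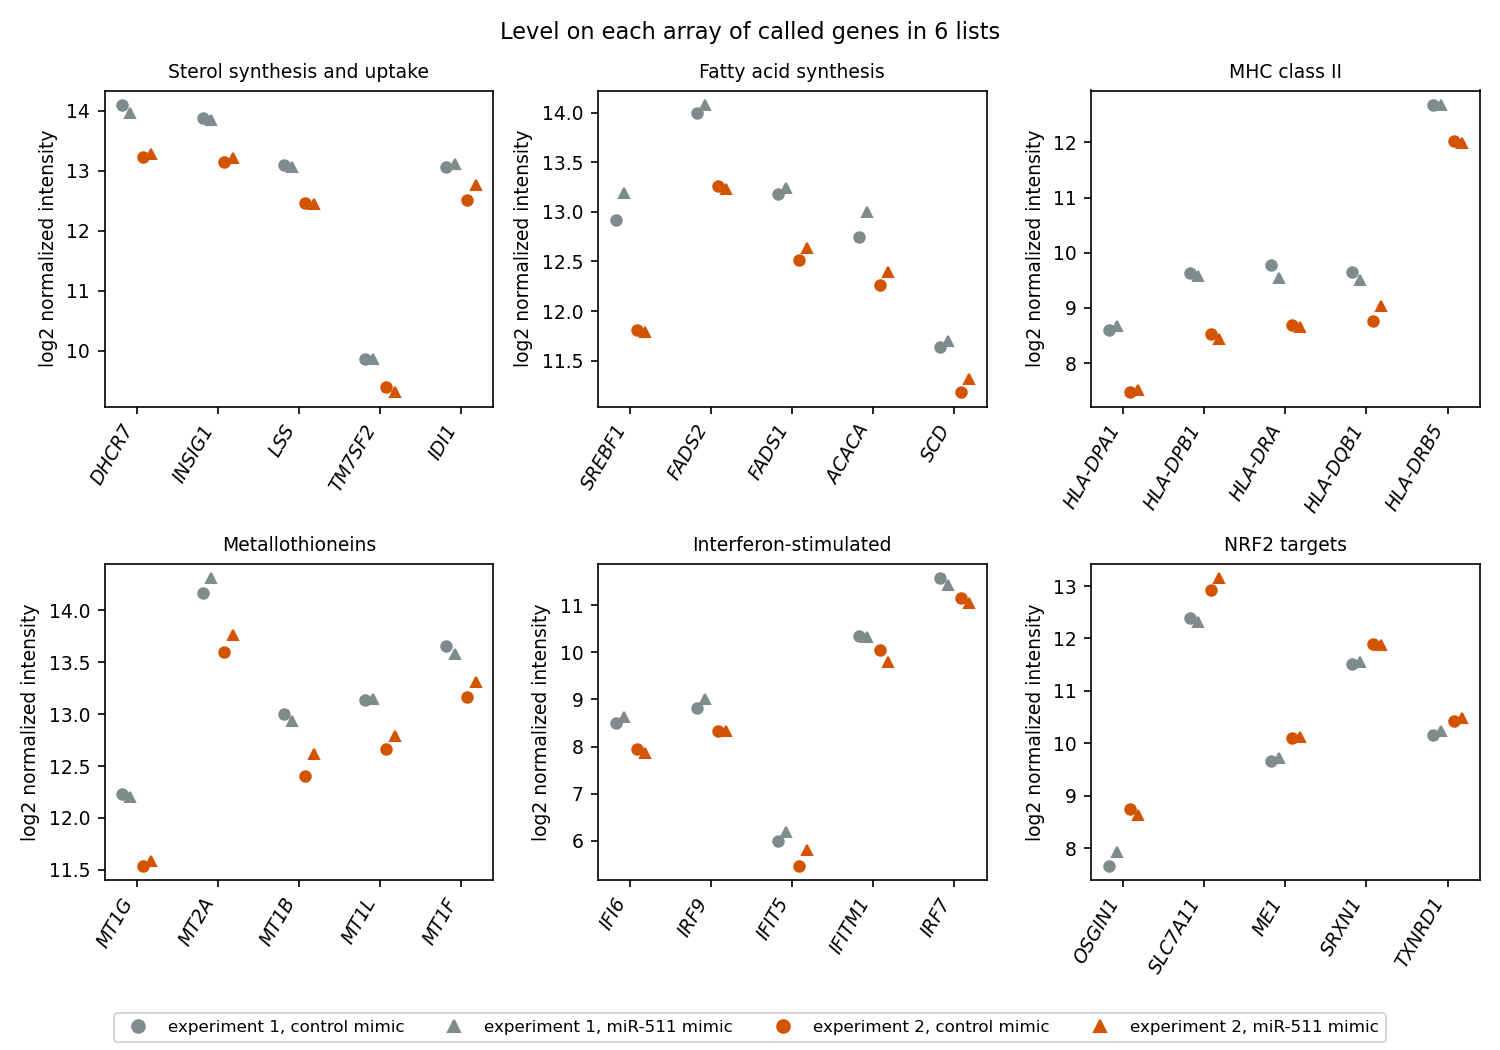
Log2 normalized intensity on each of the 4 arrays (vertical axis) for called genes of 6 lists, the first 5 a list in order of size, with experiment 1 in grey, experiment 2 in orange, circles for the control mimic and triangles for the miR-511 mimic. In 5 panels the orange symbols lie below the grey ones, and in the NRF2 panel they lie above.

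MHC class II transcripts, which encode the molecules that present peptides to CD4+ T cells, were lower in experiment 2 at every tested gene of the list, in both pairs of arrays. Of 11 tested genes, 7 were called lower and 0 higher, with a median of -0.548 (-0.523 in the control mimic pair, -0.529 in the miR-511 mimic pair). The 7 include HLA-DOA, which passed the filter only through experiment 1, so the filter favoured its direction. Class II promoters are known for a Y box, the site bound by the factor NF-Y next to which CIITA is recruited. The letters CTGATTGG were looked for on both strands of the 250 bases before the start in the RefSeq promoter table (GRCh38.p14). They occurred in 4 of the 9 list genes that the table holds, HLA-DQB1, HLA-DRB1, HLA-DRB5 and HLA-DMA, and in 3.81% of all 35116 windows. HLA-DPA1, HLA-DPB1, HLA-DOA, CD74 and HLA-DMB held none in this window. The stretches of 3 genes with a match are shown so that the match, in capitals, can be seen in its surroundings:
HLA-DRB1 (chr6:32589870-32589917, minus strand): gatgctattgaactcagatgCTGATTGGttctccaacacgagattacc
HLA-DQB1 (chr6:32666721-32666768, minus strand): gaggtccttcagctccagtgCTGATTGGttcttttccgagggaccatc
HLA-DMA (chr6:32953152-32953199, minus strand): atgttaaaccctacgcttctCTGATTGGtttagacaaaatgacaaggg
A match is a description of letters, and binding was not measured.

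The HLA-DP pair gave the largest differences of the list. HLA-DPA1, the alpha chain (chr6:33032848-33032907), had levels of 8.59 and 8.66 in experiment 1 and 7.47 and 7.51 in experiment 2, a 2.20-fold lower level (-1.14 ± 0.08, limma adjusted p = 0.359). Its partner HLA-DPB1 (chr6:33054359-33054418) stood at 9.63 and 9.57 in experiment 1 and 8.52 and 8.44 in experiment 2 (-1.12 ± 0.08). All 4 tested HLA-DPB1 probes and both HLA-DPA1 probes were called lower. The chains of the other class II molecules followed. HLA-DRA, the alpha chain of HLA-DR (chr6:32412448-32412507), was at 9.77 and 9.54 in experiment 1 and 8.68 and 8.66 in experiment 2, 1.98-fold lower. HLA-DQB1 was at 9.66 and 9.51 in experiment 1 and 8.75 and 9.03 in experiment 2 (-0.70 ± 0.14).

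HLA-DRB5 and HLA-DRB1, beta chains of HLA-DR, differed by -0.68 ± 0.08 and -0.55 ± 0.08, but their sequences are alike and probes may share transcripts. HLA-DOA, which modulates peptide loading, was close to background, well above it on both arrays of experiment 1 and 1 of experiment 2, with levels of 3.94 and 3.95 in experiment 1 and 3.53 and 3.42 in experiment 2. Its call was lost with normexp, at -0.0752. The peptide editor genes HLA-DMA and HLA-DMB, the invariant chain gene CD74 and the coactivator gene CIITA were not called. CIITA stood at 5.43 and 5.35 in experiment 1 and 5.27 and 5.00 in experiment 2 (-0.26 ± 0.09, limma adjusted p = 0.441), and CD74 at 8.72 and 8.63 in experiment 1 and 8.57 and 8.41 in experiment 2. Between 7 and 8 members were called lower whichever array was left out. The MHC class I list, by contrast, had 0 of 14 tested genes called lower and 1 higher, with a median of 0.00423. The gene called higher was NLRC5, the class I coactivator (0.38 ± 0.08), and its second probe was not called (0.13 ± 0.10). The difference between the class I and class II lists was not tested.

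Metallothioneins are small cysteine-rich proteins that bind zinc and copper. Of 12 tested genes of their list, 8 were called lower in experiment 2 and 0 higher. Differences lay below 0 for 10 genes and above 0 for 2, with a median of -0.350. MT1G (chr16:56700693-56700752) had levels of 12.23 and 12.20 in experiment 1 and 11.54 and 11.58 in experiment 2 (-0.65 ± 0.08, limma adjusted p = 0.359), 1.57-fold lower. MT2A (chr16:56643332-56643391) was at 14.17 and 14.31 in experiment 1 and 13.60 and 13.76 in experiment 2 (-0.56 ± 0.08). On both probes the experiments lay apart by more than the arrays within them. MT1B, MT1L, MT1F and MT1E were called at -0.45, -0.42, -0.38 and -0.37, and MT1X and MT1M were called too. The family shares much of its sequence on chromosome 16, so these probes are not independent of each other. MT1H was not called and stood at 13.47 and 12.08 in experiment 1 and 13.14 and 13.36 in experiment 2, with the experiment 1 miR-511 mimic array low. The zinc exporter gene SLC30A1, another MTF1 target on the list, was not called and stood at 9.38 and 9.34 in experiment 1 and 9.49 and 9.51 in experiment 2. Without the experiment 2 control mimic array, 4 genes were called lower, without the experiment 1 control mimic array 5, and with no filter on dim probes 4.

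Metal response elements, the sites of MTF1, were looked for as TGCACNC or TGCGCNC on both strands of the same windows. All 5 list genes in the promoter table (MT2A, MT1H, MT1B, MT1X and SLC30A1) held at least 1 match, as did 24.8% of all windows. MT1H, which was not called, held the most, 8. MT2A and MT1X are shown as the called genes with the most matches on either strand, overlapping ones counted, in capitals, 7 in the first and 4 in the second:
MT2A (chr16:56608334-56608583, plus strand): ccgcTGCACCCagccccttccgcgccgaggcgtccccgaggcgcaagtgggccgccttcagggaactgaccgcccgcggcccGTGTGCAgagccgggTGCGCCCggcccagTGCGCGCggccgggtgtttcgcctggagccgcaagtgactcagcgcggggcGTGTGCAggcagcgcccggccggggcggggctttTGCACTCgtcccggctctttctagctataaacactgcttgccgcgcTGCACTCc
MT1X (chr16:56682300-56682443, plus strand): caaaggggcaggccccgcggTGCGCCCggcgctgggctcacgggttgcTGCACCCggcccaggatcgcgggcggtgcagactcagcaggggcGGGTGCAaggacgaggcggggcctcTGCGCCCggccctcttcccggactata
The SREBP element TCACNCCAC, occurred in 1 of 18 sterol genes in the table (SREBF2), in 0 of 11 fatty acid genes and in 0.883% of all windows, which says only that these letters are not in those windows.

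Interferon-stimulated genes lay lower as a group, with 31 of 33 tested genes below 0, 9 called lower and 0 higher, and a median of -0.275. The median was -0.185 in the control mimic pair and -0.385 in the miR-511 mimic pair. IFI6, a mitochondrial antiviral protein (chr1:27992837-27992896), had levels of 8.51 and 8.63 in experiment 1 and 7.96 and 7.87 in experiment 2, 1.58-fold lower (-0.66 ± 0.10, limma adjusted p = 0.36). IRF9, the DNA-binding subunit of the complex that drives these genes (chr14:24635500-24635559), was at 8.82 and 9.0 in experiment 1 and 8.33 and 8.33 in experiment 2 (-0.58 ± 0.09). ISG15, a ubiquitin-like antiviral modifier, was at 12 and 12.02 in experiment 1 and 11.71 and 11.57 in experiment 2 (-0.36 ± 0.09), and IRF7, which amplifies interferon production, at 11.57 and 11.43 in experiment 1 and 11.16 and 11.05 in experiment 2 (-0.39 ± 0.08). For these genes both arrays of experiment 2 lay below both arrays of experiment 1, which follows largely from their being called. The experiments did not overlap at 2556 of the 2690 called probes, and at 49.4% of all tested probes. IFIT5, IFITM1, HERC6, OAS2 and IFI27 were also called, with differences from -0.46 to -0.28. With normexp, IFIT5, IFITM1, HERC6 and IFI27 were no longer called, at -0.197, -0.163, -0.0948 and -0.09, and a second HERC6 probe was not called, at 0.97 ± 0.50. Other probes of IFITM1 (-0.21 ± 0.17) and OAS2 (-0.29 ± 0.21 and -0.44 ± 0.21) were not called either. Scaled to the 75th percentile, 14 members were called lower in place of 9; without the experiment 2 miR-511 mimic array 4 were, and without the experiment 1 miR-511 mimic array 6.

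The response element of these genes was looked for as GAAA, any 2 bases and GAAA again, on both strands. It occurred in 14 of 25 list genes in the promoter table and in 3.02% of all windows. IFI6 and ISG15 are shown, with matches in capitals, 3 in IFI6 and 2 overlapping ones in ISG15:
IFI6 (chr1:27672256-27672368, minus strand): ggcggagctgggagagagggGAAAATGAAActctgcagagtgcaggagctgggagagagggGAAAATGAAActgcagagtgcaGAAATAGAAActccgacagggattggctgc
ISG15 (chr1:1013364-1013419, plus strand): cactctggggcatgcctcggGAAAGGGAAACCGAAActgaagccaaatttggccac

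**Figure D3:**
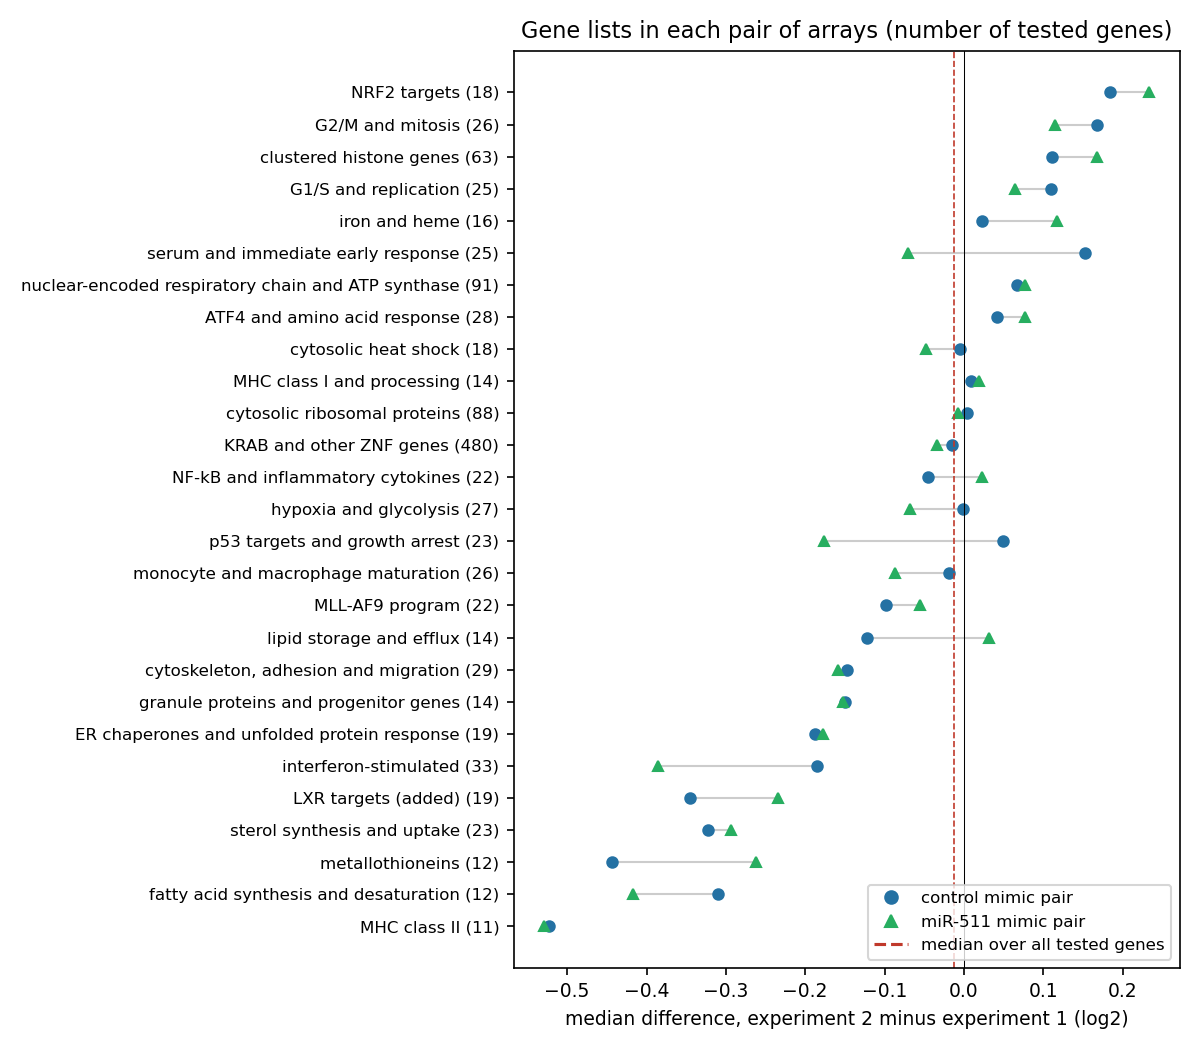
Median log2 difference, experiment 2 minus experiment 1, over the tested genes of each gene list (number in brackets, cell type markers not shown), in the control mimic pair (circles) and the miR-511 mimic pair (triangles), with the median over all genes (-0.0126) as a dashed line. MHC class II lies lowest in both pairs (-0.523 and -0.529), and among the lists plotted the NRF2 targets lie highest (0.184 and 0.234).

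Calls among stress genes went in both directions, and differences between these lists were not tested. Genes of ER chaperones and the unfolded protein response had 4 of 19 members called lower, 0 higher and a median of -0.179. DNAJB9, an ER co-chaperone (chr7:108214515-108214574), was at 11.09 and 11.14 in experiment 1 and 10.53 and 10.57 in experiment 2 (-0.57 ± 0.08). MANF, HSP90B1 and ERN1 were called at -0.36, -0.34 and -0.30. A second HSP90B1 probe was not called, at -0.10 ± 0.08. Without the experiment 1 miR-511 mimic array 2 genes of the list were called lower, and with normexp background correction 9. HSPA5, the main ER chaperone, was not called (-0.20 ± 0.10). The cytosolic heat shock list had 3 of 18 called lower and 1 higher: HSPA1A was at 10.74 and 10.65 in experiment 1 and 10.03 and 9.99 in experiment 2 (-0.68 ± 0.08), with HSPA1B at -0.31 ± 0.08, DNAJB1 at -0.25 ± 0.08 and CRYAB at 0.46 ± 0.13. ERN1 and CRYAB were not called with normexp, at -0.0703 and 0.0522. HSPA1A and HSPA1B are near-identical copies, and their probes may share transcripts.

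Among NRF2 targets, the antioxidant genes, 6 of 18 tested genes were called higher in experiment 2 and 0 lower, 13 had differences above 0 and 5 below, with a median of 0.217 (0.184 and 0.234 in the 2 pairs). OSGIN1, an oxidative stress response gene (chr16:83999149-83999208), had levels of 7.67 and 7.93 in experiment 1 and 8.74 and 8.64 in experiment 2, 1.86-fold higher (0.89 ± 0.13, limma adjusted p = 0.36). SLC7A11, the cystine importer (chr4:139085433-139085492), was at 12.40 and 12.32 in experiment 1 and 12.93 and 13.15 in experiment 2 (0.68 ± 0.12). SRXN1, TXNRD1 and FTH1 (sulfiredoxin, thioredoxin reductase and ferritin heavy chain) were called at 0.34, 0.26 and 0.25. HMOX1, heme oxygenase, was not called, at 5.66 and 5.85 in experiment 1 and 6.81 and 6.13 in experiment 2, and neither was NQO1, at 0.23 ± 0.09. Without 1 array, 4 or 5 members were called higher, 4 of them without the experiment 1 miR-511 mimic array.

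The ATF4 and amino acid list, which shares SLC7A11, had 6 of 28 genes called higher and 2 lower, with a median of 0.0584. NUPR1, a stress-induced nuclear protein (chr16:28548821-28548880), was at 7.08 and 6.75 in experiment 1 and 8.06 and 8.03 in experiment 2, 2.19-fold higher (1.13 ± 0.12). PHGDH and PSAT1, the enzymes that open serine synthesis, were at 0.47 ± 0.08 and 0.39 ± 0.08, and the amino acid transporter subunits SLC3A2 and SLC7A5 at 0.36 ± 0.08 and 0.34 ± 0.09. These 6 genes were higher on both arrays of experiment 2, which follows largely from their being called. The experiments did not overlap at 2556 of the 2690 called probes, and at 49.4% of all tested probes. VLDLR was called lower (-0.27 ± 0.08), as was VEGFA, the vascular growth factor, at 8.92 and 9.09 in experiment 1 and 7.80 and 8.57 in experiment 2. The second VEGFA probe, at chr6:43753511-43753570, was not called (0.10 ± 0.13).

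Replication-dependent histone genes, which are transcribed in S phase, had 11 of 63 tested members called higher and 0 lower, with a median of 0.136. H4C6 (chr6:26240818-26240877) was at 11.51 and 11.39 in experiment 1 and 12.28 and 12.35 in experiment 2 (0.86 ± 0.10, limma adjusted p = 0.359). H2BC26 (chr1:228646192-228646251) was at 7.14 and 6.82 in experiment 1 and 7.63 and 7.88 in experiment 2 (0.77 ± 0.18), and H4C15, H4C9, H4C8 and H4C11 differed by 0.69, 0.65, 0.65 and 0.54. Of the 11 called genes, 8 encode histone H4, whose copies are nearly the same in sequence. Of 26 G2/M genes 0 were called in either direction by limma in the main fit, with 24 differences above 0, 2 below and a median of 0.146. The G1/S list had 2 of 25 called higher, with 18 differences above 0, 7 below and a median of 0.105. At an unadjusted p below 0.05 an unmoderated test called 5 G2/M genes higher and the fit with an intensity trend also 5. With 75th percentile scaling and with normexp 2 were called higher. UHRF1, a hemimethylated DNA reader, was called at 0.27 ± 0.08. MKI67 stood at 11.69 and 11.66 in experiment 1 and 11.46 and 11.89 in experiment 2.

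Among genes of the leukaemic program and of progenitors, HOXA3, HOXA6 and MYB were called lower at probes above background on all 4 arrays, and MEIS1 and KIT were measured in experiment 1 only. MEIS1, the homeobox partner of HOXA9 (chr2:66799326-66799385), was at 4.14 and 4.25 in experiment 1 and stood clear of background on neither array of experiment 2, which is at least 1.79-fold lower. KIT, the stem cell factor receptor (chr4:55606511-55606570), was at 4.76 and 4.5 in experiment 1 and likewise on neither array of experiment 2, at least 2.43-fold lower. These bounds set the mean of experiment 1 against the dimmest signal that counted as well above background, and hold for the processed intensities only. With normexp background correction, whose offset of 50 draws dim probes together, the differences were -0.301 for MEIS1 and -0.244 for KIT, both still called. HOXA3 was at 4.59 and 4.61 in experiment 1 and 3.98 and 4.08 in experiment 2 (-0.57 ± 0.08), HOXA6 at -0.29 ± 0.08, and MYB, a transcription factor of progenitors, at 16.58 and 16.69 in experiment 1 and 16.24 and 16.44 in experiment 2 (-0.30 ± 0.08). HOXA3 and HOXA6 were no longer called with normexp, at -0.123 and -0.192, nor MYB with 75th percentile scaling, at -0.25. The MLL-AF9 program had 4 of 22 genes called lower, 0 higher and a median of -0.0742, and the granule and progenitor list 2 of 14 lower (KIT and MYB), 0 higher and a median of -0.151. These counts include MEIS1 and KIT, which passed the filter only through experiment 1 and so could only come out lower. Without the experiment 1 miR-511 mimic array or the experiment 2 control mimic array, 2 genes of the MLL-AF9 program were called lower. The granule and progenitor list had 1 called lower with 75th percentile scaling, and 5 lower and 1 higher with normexp. HOXA9 itself was not called, at 12.66 and 12.62 in experiment 1 and 12.62 and 12.45 in experiment 2.

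Of the monocyte and macrophage maturation genes 1 was called higher and 4 lower of 26. CD38, an ectoenzyme of monocytic surface (chr4:15850185-15850244), was at 7.66 and 7.50 in experiment 1 and 6.90 and 6.87 in experiment 2, 1.62-fold lower (-0.70 ± 0.09, limma adjusted p = 0.359). CD86, a costimulatory ligand for T cells (chr3:121839246-121839305), was called higher, from 7.19 and 6.92 to 7.92 and 7.53 (0.67 ± 0.09). Its difference had the size of that of CD38 with the opposite sign. S100A12, CD36 and CD68 were called lower, at -0.46 ± 0.10, -0.34 ± 0.08 and -0.29 ± 0.08, and for S100A12 the experiments overlapped and the call was lost with normexp, at -0.158. When either array of experiment 1 was left out, 2 genes of the list were called lower, and with normexp 7 were. CD14 and TLR4, the receptors of lipopolysaccharide, were not called (0.21 ± 0.11 and 0.08 ± 0.08).

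Inflammatory genes had no common direction, with 3 of 22 called higher and 2 lower and a median of -0.0317. CCL2, the monocyte chemokine (chr17:32584050-32584109), was at 4.19 and 4.87 in experiment 1 and 3.50 and 4.19 in experiment 2, lower in experiment 2 within each mimic (-0.68 ± 0.08), although the experiments overlap because the miR-511 mimic arrays were higher in both. Its probe was well above background on 1 of the 2 arrays of experiment 2 and passed the filter only through experiment 1, so the size of the difference is uncertain. Its call was lost in the fit without the mimic term, with an unmoderated test, with any array left out and with normexp background correction, where the difference was -0.122. CCL4, CXCL1 and CCL20, also chemokines, were called higher at 0.65 ± 0.15, 0.51 ± 0.08 and 0.43 ± 0.08 (CCL4 with overlapping experiments), and CD40, the receptor of CD40 ligand, lower at -0.48 ± 0.08. IL1B and MMP9 were not called, at 7.20 and 7.40 in experiment 1 and 7.15 and 7.53 in experiment 2 and at 6.31 and 6.87 in experiment 1 and 6.41 and 6.70 in experiment 2.

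Immediate early genes had 3 of 25 members called higher and 1 lower, and with normexp 5 higher and 2 lower. JUN, a subunit of AP-1 (chr1:59246511-59246570), was at 6.72 and 6.86 in experiment 1 and 7.49 and 7.54 in experiment 2 (0.73 ± 0.08, limma adjusted p = 0.359), FOSB at 0.56 ± 0.11 and KLF6 at 0.37 ± 0.08. DUSP6, a phosphatase of ERK, was lower at -0.34 ± 0.08. The list median was 0.153 in the control mimic pair and -0.071 in the miR-511 mimic pair, so the 2 pairs differed in sign.

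Cytoskeleton and adhesion genes had 7 of 29 called lower, 0 higher and a median of -0.125. MYL9, a myosin light chain (chr20:35177541-35177600), was at 7.33 and 7.42 in experiment 1 and 6.55 and 6.41 in experiment 2, 1.86-fold lower (-0.90 ± 0.10). CD44, the hyaluronan receptor (chr11:35253812-35253871), was at 9.60 and 9.38 in experiment 1 and 8.80 and 8.82 in experiment 2 (-0.68 ± 0.10). ITGB7, TPM2, ICAM3 and VIM were called at -0.43, -0.41, -0.39 and -0.38, and ITGA4 too. Other ITGA4 probes were not called, at 0.06 ± 0.08 and -0.16 ± 0.08, the first of opposite sign. The list therefore holds adhesion receptors and filament proteins among its called members. The p53 and growth arrest list had 3 of 23 called higher and 5 lower: PMAIP1, a BH3-only death gene, and GADD45A were higher (0.53 ± 0.10 and 0.51 ± 0.08), while TP53INP1, GADD45B and BTG1 were lower (-0.53 ± 0.08, -0.42 ± 0.09 and -0.38 ± 0.09). The hypoxia and glycolysis list had 4 of 27 higher and 3 lower. The 4 include SLC2A3, a glucose transporter above background on 1 array of experiment 1, at 0.70 ± 0.17. It passed the filter only through experiment 2, so the filter favoured its direction. PFKFB4 was called at -0.51 ± 0.08, MXI1 at -0.32 ± 0.08, ADM at 0.31 ± 0.09 and LDHA at 0.26 ± 0.08. Of these lists, 4 cytoskeleton genes were called lower when either control mimic array was left out, and with 75th percentile scaling 1 hypoxia gene was called higher. With normexp SLC2A3 and ADM were not called, at 0.127 and 0.0974.

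Over all genes, 4.91% were called higher and 7.23% lower, and bright probes were called less often than dim ones. Shares of the ribosomal protein, respiratory chain and ZNF lists lay below these, a difference that was not tested. Of 88 cytosolic ribosomal protein genes 2 were called higher (RPL3L at 0.53 and RPL27A at 0.28) and 0 lower, with a median of -0.015, and both of these calls were lost with 75th percentile scaling, while the alternatives with all arrays gave 0 to 4 called higher and 0 to 3 lower. Of 91 genes of the respiratory chain and ATP synthase 1 was called higher (NDUFA9 at 0.30) and 0 lower, with a median of 0.0613. On that list 3 were called higher with 75th percentile scaling and 4 with normexp. The iron and heme list had 1 of 16 called, FTH1. Zinc finger genes named ZNF had 10 of 480 called higher (2.08%) and 24 lower (5%), with ZNF660 at -0.90 ± 0.08 as the largest called difference, and a median of -0.019. Of the 24, 4 passed the filter only through experiment 1. With normexp background correction 20 ZNF genes were called higher and 34 lower.

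Apart from the lists, genes are given from the first 15 of each direction, ranked by the smaller of their 2 pair differences. They came from 1857 called probes that passed the background filter on every array and carried a gene symbol other than a LOC number. Each is read at its highest ranked probe, which is not always its brightest. PRG2, the eosinophil granule major basic protein (chr11:57156585-57156644), was higher in experiment 2 by 3.20-fold, at 7.62 and 7.59 in experiment 1 and 9.24 and 9.33 in experiment 2 (1.68 ± 0.08, limma adjusted p = 0.359). IGLL1, the surrogate light chain of immature B cells (chr22:23917163-23917222), was at 9.14 and 9.04 in experiment 1 and 10.84 and 10.47 in experiment 2 (1.56 ± 0.11), and its second probe was called in the same direction at 0.94 ± 0.11. Neither gene is one of the defining markers of B lymphocytes used here, of which MS4A1, BLK and CR2 were above background on none of the 4 arrays. FXYD3, a regulator of the sodium pump (chr19:35614472-35614531), was at 5.61 and 5.60 in experiment 1 and 6.98 and 6.86 in experiment 2 (1.31 ± 0.08). ADAMTS7, a secreted metalloprotease, was at 5.45 and 6.37 in experiment 1 and 7.40 and 7.66 in experiment 2 (1.61 ± 0.21), but its brightest probe was not called and stood at 16.20 and 16.21 in experiment 1 and 16.31 and 16.42 in experiment 2. With normexp background correction the differences were 0.668 for FXYD3 and 0.964 for ADAMTS7.

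SUZ12P1, a pseudogene of the Polycomb gene SUZ12 (named SUZ12P in the files, chr17:29085292-29085351), ranked first by the smaller of its 2 pair differences, 1.919. Its fitted difference was 2.12 ± 0.14, from 14.92 and 15.06 to 17.24 and 16.98. A second probe, at chr17:29085298-29085357 and thus overlapping the first for most of its length, stood at 15.43 and 15.42 in experiment 1 and 14.22 and 15.26 in experiment 2, not called and of opposite sign. The gene is uncertain for that reason. For PRR13, VWA1 and TAS1R3 the experiment 1 miR-511 mimic array was the lowest, and a second probe of each was not called. PRR13 stood at 8.17 and 5.24 in experiment 1 and 9.71 and 8.31 in experiment 2, a fitted difference of 2.30 ± 0.45 that exceeded that of SUZ12P1. VWA1 was at 7.82 and 6.03 in experiment 1 and 8.84 and 8.80 in experiment 2, and TAS1R3 at 8.79 and 8.02 in experiment 1 and 9.92 and 10.52 in experiment 2. With 1 array left out, the difference of PRR13 ran from 0.841, without the experiment 1 miR-511 mimic array, to 3.78, without the experiment 1 control mimic array, and that of VWA1 from 0.999 to 2.80 on leaving out the same arrays. GADD45G, a growth arrest gene, was called at both probes, 1.30 ± 0.14 and 0.39 ± 0.09, and the second call was lost with normexp, at 0.161. CAGE1, CAV2, IQCJ-SCHIP1, GSG1 and DHRS3 were higher by 1.13 ± 0.08, 1.13 ± 0.08, 1.11 ± 0.08, 1.06 ± 0.08 and 1.00 ± 0.08; CAV2 encodes a caveolin and DHRS3 a retinaldehyde reductase. With normexp background correction, PRR13, GADD45G (first probe) and CAV2 differed by 1.64, 0.419 and 0.232.

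Among the genes lower in experiment 2, OLMALINC, ABCA1, SREBF1, HLA-DPA1 and HLA-DPB1 were described above. CRABP1, a cellular retinoic acid binding protein (chr15:78640508-78640567), was at 10.07 and 10.15 in experiment 1 and 8.93 and 9.0 in experiment 2, 2.21-fold lower (-1.15 ± 0.08). CNR1, the cannabinoid receptor of neurons (chr6:88849982-88850041), was at 7.37 and 7.41 in experiment 1 and 6.16 and 5.85 in experiment 2 (-1.39 ± 0.13). TNFRSF25, the death receptor for TL1A (chr1:6521245-6521304), was at 8.30 and 8.16 in experiment 1 and 7.02 and 6.87 in experiment 2 (-1.29 ± 0.08). All 3 were lower in experiment 2 by more than 1 in both pairs of arrays, which follows from how they were picked. The ranking was by the smaller pair difference, and CDC42EP1, last among the lower genes picked, had one of -1.039. SLC12A7, a potassium chloride cotransporter, was at 6.14 and 6.25 in experiment 1 and 4.87 and 4.79 in experiment 2, and EEF1A2, an elongation factor of translation, at 7.12 and 7.18 in experiment 1 and 5.88 and 6.06 in experiment 2. PPP1R3A, ATP8B3, GSTT2 and CDC42EP1 differed by -1.57 ± 0.18, -1.29 ± 0.15, -1.07 ± 0.08 and -1.10 ± 0.08. With normexp background correction, PPP1R3A and SLC12A7 differed by -0.664 and -0.468. GSTT2 is a glutathione transferase gene with a near-identical copy beside it, which its probe may also read. CCND1, which the study followed as cyclin D1, was not called, at 6.05 and 5.95 in experiment 1 and 6.02 and 5.68 in experiment 2.

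**Figure D4:**
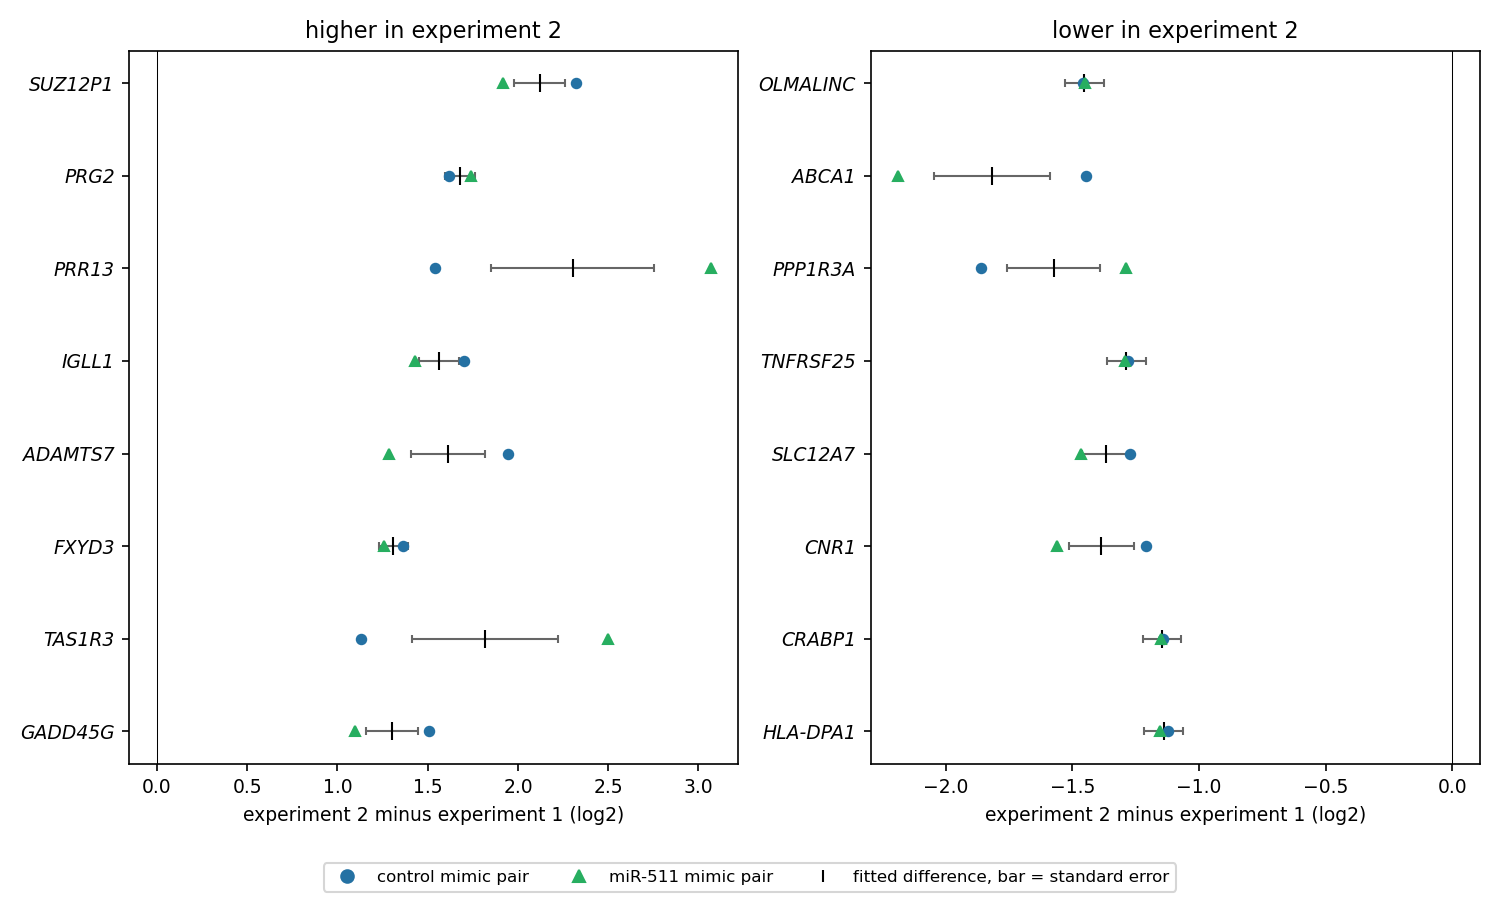
Log2 difference between experiments for the first 8 genes of each direction ranked by the smaller of their 2 pair differences, with the control mimic pair (circle), the miR-511 mimic pair (triangle) and the fitted difference with its standard error. PRR13 and TAS1R3 have pairs more than 1 apart, while OLMALINC (-1.45) and TNFRSF25 (-1.29) have pairs that coincide.

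Second probes gave a further reading of the same gene on the same arrays, in some cases on overlapping sequence. Among genes named above, another probe of ACACA, CXCL1, FABP5, FTH1, GSG1, LDHA, MT1X, MXI1, TP53INP1, UHRF1 and VLDLR had the same sign without being called. Of 356 genes called at their brightest probe that had a second tested probe, 298 (83.7%) had the second probe on the same side of 0 and 121 (34%) had it called in the same direction, while 63.6% of all genes with a second probe had both on the same side. Along the genome, the lowest of 17428 medians over 20 neighbouring genes (-0.26) lay at chr6:32082814-32726794, where MHC class II genes are, with 7 of 20 genes called lower. The next lowest window without overlap (-0.248) lay at chr7:128266597-128853296, again with 7 called lower, and the highest (0.248) at chr12:31478589-40928586 with 6 called higher. Chromosome medians lay between -0.0509 on chromosome 7 and 0.0193 on chromosome 5. Dim probes were called more often: of 5 groups of equal size by brightness, 21.6% of the dimmest probes were called and 5.16% of the brightest.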

How the data were processed

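RNA of THP1 cells was hybridized to single-dye Agilent whole genome arrays. The deposited scanner files give an intensity for each spot, which per the labels came from Agilent Feature Extraction 10.5.1.1 (the file headers name 10.7.3.1), background-subtracted but with no scaling across arrays. A quantile normalized log2 table that the authors deposited served as an alternative. Processed intensities of 43118 non-control spots were log2 transformed (R 4.3.3, limma 3.58.1), spots marked as outliers (232 to 301 per array) were left out, arrays were quantile normalized and the spots of 1 probe averaged. Tested were the 22596 probes with a value on all arrays and more than 50% of spots well above background on both arrays of an experiment. Intensities are relative, and the number of arrays limits their precision.

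limma's lmFit and eBayes gave experiment 2 minus experiment 1 with the mimic as covariate (2-sided p). The mimic label pairs the arrays across experiments. Members of lists and shares over all genes were read at the brightest tested probe, and the 15 genes of each direction at their highest ranked probe. Counts of called genes held every gene with any called probe. From RefSeq, 80.8% of tested probes took a current symbol by accession. Probe positions are those of the files (hg19). Named were the first 15 genes of each direction (LOC numbers left out) by the smaller of their 2 pair differences, up to 6 called members of a list by size, and genes the study followed; further called members are named for completeness, and uncalled ones were chosen after their values were seen. The comparison and the lists were chosen with earlier results of these data known. The fit was tested on simulated data. Alternatives changed the scaling, background correction, filter, marked spots, source, mimic term, prior and test, and left out each array. Some genes that these rules select are not reported here, and the counts include them.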

Additional observations from a re-analysis of the deposited data

How the results depend on the processing

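Called probes numbered 2690 and called genes 2535, and under the 9 alternatives with all arrays they ranged from 2598 to 3191 probes and from 2464 to 2986 genes. Of these genes, between 1262 (an unmoderated test with 2 degrees of freedom) and 2475 (marked spots kept) were among the 2535. Without the mimic term, that is, without the replicate block that pairs the arrays, 3191 probes and 2986 genes were called. The unmoderated test left 1 probe past the Benjamini-Hochberg adjustment, at 0.0237, and the other alternatives none. With 1 array left out, counts ran from 1987 to 3419 probes and 1908 to 3272 genes, in a fit without the mimic term, where the lone array is assumed to vary like the other experiment.

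The share of called probes that were higher in experiment 2 was 41.1%. It was 32.6% with 75th percentile scaling, 43.2% with no filter, 38.7% for probes well above background on all arrays, 43.4% with the deposited log2 table and 43.4% with the unmoderated test. With 1 array left out it ran from 39.7% to 52.8%, the highest without the experiment 1 control mimic array. The share of probes with the same sign in both pairs was 62.9%, and 63.9% with 75th percentile scaling, 61.8% with normexp and 57% with no filter. It cannot be had from 3 arrays.

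Over all genes the median was -0.0126, and -0.0204 with 75th percentile scaling. Either scaling aligns the arrays, so a value near 0 was largely fixed by it and says nothing on stability. The medians of the sterol, fatty acid, MHC class II, metallothionein, interferon, NRF2 and histone lists kept their sign under every alternative. Of the 164 named probes and list members followed through the alternatives, 38 to 62 lost their call with 1 array left out, the most without the experiment 2 control mimic array, 48 with the unmoderated test, 38 with no filter, 18 with normexp, 14 with 75th percentile scaling, 13 with an intensity trend, 7 without the replicate block and 2 each with marked spots kept and the deposited table. With 1 array left out, 3 uncalled genes changed sign: MMP9 ran from -0.317 to 0.242 (above 0 without the experiment 1 miR-511 mimic array and, at 0.109, without the experiment 2 control mimic array), IL1B from -0.145 to 0.235 (-0.0589 without the experiment 1 control mimic array) and CCND1 from -0.318 to 0.024. Dim probes and the spread of 4 arrays limit what can be called.

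The calls lost with all arrays include, with 75th percentile scaling, those of ABCG1, ADM, FDFT1, FDPS, H2AC1, HMGCS1, HSP90B1, MYB, PFKFB3, RPL27A, RPL3L, SLC2A3, VIM and VLDLR. With normexp they include ABCG1, ADM, CCL2, CRYAB, ERN1, GADD45G, H2AC1, H4C16, HERC6, HLA-DOA, HOXA3, HOXA6, IFI27, IFIT5, IFITM1, RPL27A, S100A12 and SLC2A3. With an intensity trend they include ABCG1, ADM, CRYAB, ERN1, H2AC1, H4C16, HERC6, HLA-DOA, HOXA6, IFI27, S100A12, SC5D and SLC2A3. With no filter on dim probes they include ABCG1, ACLY, ADM, BTG2, CD68, CRYAB, CYP51A1, DNAJB1, FDFT1, FTH1, H2BC26, HMGCS1, HOXA6, HSP90B1, ICAM3, IFI27, ITGA4, LDHA, MT1B, MT1E, MT1F, MT1M, MYB, OAS2, PFKFB3, RPL27A, RPL3L, SC5D, SLC2A3, STARD4, TAS1R3, TXNRD1, UHRF1, VEGFA, VLDLR and VWA1. Without the replicate block they are BTG2, CCL2, CCL4, HSP90B1, HSPA1B, PRR13 and S100A12, and with marked spots kept, as with the deposited table, ABCG1 and DNAJB1. With the unmoderated test they include ABCG1, ACACA, ACSL3, ADAMTS7, ADM, BTG2, CCL2, CCL4, CD68, CD86, CRYAB, CXCL1, DHRS3, DNAJB1, ERN1, FASN, FOSB, GADD45G, H2BC26, H4C16, HMGCS1, HSP90B1, HSPA1B, ICAM3, IDI1, IFIT5, IFITM1, MSMO1, MT1B, MXI1, MYB, MYLIP, PDK4, PRR13, RPL27A, RPL3L, S100A12, SLC2A3, SLC7A5, STARD4, TAS1R3, TP53I3, TP53INP1, VEGFA, VIM and VWA1.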
